A study of Drosophila melanogaster with 2 samples.

Results

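Candidate binding regions of the Drosophila melanogaster SUMO ligase Su(var)2-10 on chromosome 4, the smallest chromosome of the fly, were the 645 of 30000 peaks of the pooled dm6 candidate list that lay on that chromosome. They were chosen by position alone, so their signal and their replicate support played no part in the choice. Chromatin of whole embryos, 0 to 24 h old and of mixed sex, was sheared by sonication to 200 to 800 bp and immunoprecipitated with an anti-GFP antibody. The embryos came from the transgenic strain Suvar2-10-GFP, which expresses Su(var)2-10 fused at its C terminus to GFP. The study held 1 group of 2 biological replicates, labelled 2 and 3, with no second genotype, stage or treatment, and a whole-embryo pool does not separate cell types. A smaller list holds the 2942 candidates that passed the authors' threshold on the irreproducible discovery rate (IDR), a measure of how well peak ranks repeat between replicates. Those 2942 are also the pooled peaks with the highest signal value, so passing and high signal cannot be told apart. The candidate list was made as input for IDR and holds background as well as peaks. Its chromosome 4 members had a median −log10 q of 0.325, where 2 stands for a q-value of 0.01.

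Su(var)2-10 is the fly member of the PIAS family of SUMO ligases, enzymes that attach the small protein SUMO to proteins bound to chromatin, and its name comes from mutants that suppress the silencing of genes placed near heterochromatin. Chromosome 4, also called the dot chromosome, is unusual because its genes lie among many transposon remnants in chromatin marked by heterochromatin protein HP1a, yet many of them are actively transcribed. A dedicated protein, POF, binds to active genes there.

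The strongest passing peaks are shown as sequence because they carry the highest signals of the chromosome and differ in which short words known from fly promoters they hold. Each line gives 201 bases centred on a summit, on the plus strand of the dm6 assembly and credited to its RefSeq copy (Release 6). Windows that touched an exon or an annotated transposon were not shown, which left out Gyf and the gw start-site peak ahead of the last line, and of overlapping peaks the stronger is shown. Capitals mark TATCGATA, its shorter form CGATA, the word GAGAG and the word CACACA, each also as its reverse complement.
PlexA, chr4:1027147-1027347: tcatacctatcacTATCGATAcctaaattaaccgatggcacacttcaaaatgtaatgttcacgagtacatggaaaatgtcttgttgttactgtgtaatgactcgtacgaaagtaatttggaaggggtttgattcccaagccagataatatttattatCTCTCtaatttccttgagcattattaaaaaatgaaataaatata
zfh2, chr4:497816-498016: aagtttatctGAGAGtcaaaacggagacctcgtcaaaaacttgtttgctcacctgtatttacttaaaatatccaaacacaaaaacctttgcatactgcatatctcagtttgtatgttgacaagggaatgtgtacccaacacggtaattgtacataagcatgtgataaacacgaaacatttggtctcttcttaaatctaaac
pho, chr4:1181826-1182026: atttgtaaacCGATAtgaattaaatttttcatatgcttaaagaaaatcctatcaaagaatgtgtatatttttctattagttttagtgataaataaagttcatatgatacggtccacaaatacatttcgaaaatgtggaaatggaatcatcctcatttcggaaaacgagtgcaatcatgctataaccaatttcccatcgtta
RpS3A, chr4:67274-67474: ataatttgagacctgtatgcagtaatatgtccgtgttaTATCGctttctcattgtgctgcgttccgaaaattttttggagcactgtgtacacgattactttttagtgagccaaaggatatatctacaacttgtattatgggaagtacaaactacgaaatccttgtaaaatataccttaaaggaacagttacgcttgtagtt
CG46466 and Slip1, chr4:663244-663444: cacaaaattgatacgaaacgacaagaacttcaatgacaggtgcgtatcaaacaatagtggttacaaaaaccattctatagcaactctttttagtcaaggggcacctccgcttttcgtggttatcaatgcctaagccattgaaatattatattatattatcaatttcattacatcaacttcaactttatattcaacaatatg
Sox102F, chr4:807600-807800: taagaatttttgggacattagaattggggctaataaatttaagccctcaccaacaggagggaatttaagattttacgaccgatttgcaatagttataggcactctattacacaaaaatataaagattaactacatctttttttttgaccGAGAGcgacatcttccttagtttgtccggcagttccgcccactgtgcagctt
Arf4 and Cals, chr4:1123671-1123871: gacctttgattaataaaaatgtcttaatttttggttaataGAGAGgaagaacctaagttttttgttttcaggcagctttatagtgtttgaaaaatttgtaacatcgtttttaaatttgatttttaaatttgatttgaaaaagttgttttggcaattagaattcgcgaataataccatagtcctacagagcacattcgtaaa
Asator, chr4:489416-489616: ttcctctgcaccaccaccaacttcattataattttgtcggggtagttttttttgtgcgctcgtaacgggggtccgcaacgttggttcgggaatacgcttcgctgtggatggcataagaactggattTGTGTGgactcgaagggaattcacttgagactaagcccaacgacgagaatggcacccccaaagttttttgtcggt
The PlexA window held TATCGATA, the element bound by the replication-related factor DREF, which contains the word CGATA on each strand. The pho and RpS3A windows held CGATA without the longer word. The zfh2, Sox102F, Arf4 and PlexA windows held GAGAG, a word bound by GAGA factor, the Asator window held CACACA as its reverse complement, and the CG46466 window held none of the 4 words. A match describes letters and does not show that a factor binds.

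Chromosome 4 held many candidates, of which a small share passed. It carried 484.6 candidates per Mb of known sequence, against 216.3 per Mb over the other chromosomes. Among these the 5 large arms ranged between 211.2 and 239.5 per Mb, and Y held 1 candidate. Only 21 chromosome 4 candidates passed, or 3.26% of them (95% Wilson interval 2.14 to 4.93), against 2921 or 9.95% off chromosome 4 (9.61 to 10.3), where the 5 large arms lay between 9.72% and 10.1% and the candidate on Y did not pass. Over all arms 9.81% of candidates passed. Passing peaks numbered 15.8 per Mb on chromosome 4 and 21.5 per Mb elsewhere. In 1000-bp tiles without unknown bases their density was 0.715 times that of the large arms, with a 95% interval of 0.467 to 1.09. These intervals cover counting error only, since depth is unknown and neighbouring peaks can share reads, and no test was run over peaks.

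**Figure D1:**
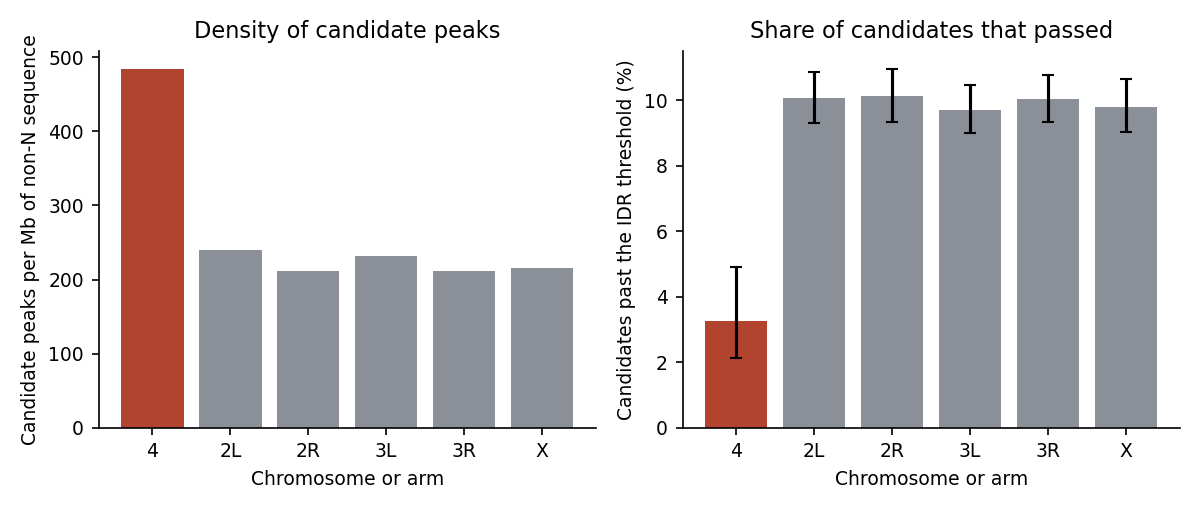
Candidate peaks per Mb (left) and share of candidates past the IDR threshold in percent (right) for chromosome 4 and the 5 large arms, with 95% Wilson intervals on the right. Chromosome 4 had 484.6 candidates per Mb, above the 239.5 of the next arm, and 3.26% passed against 9.72% or more on each large arm.

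The middle of the signal range was alike and the top was thin. The median signal value of candidates was 52.7 on chromosome 4 and 51.0 elsewhere, but the 95th percentile was 109.3 on chromosome 4 and 194.3 elsewhere, and the highest peak had 479.4 on chromosome 4 and 2409 elsewhere. Of the 1000 strongest pooled peaks 6 were on chromosome 4, or 0.600%. The chromosome held 2.34% of ranks 2943 to 10000, 2.54% of ranks 10001 to 20000 and 2.05% of ranks 20001 to 30000. It was thus present at every depth of the list and sparse only among the strongest.

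Base composition differed between the chromosomes, and the density of chromosome 4 relative to the large arms differed between G+C classes. Chromosome 4 was 35.2% G+C, the 5 large arms were between 41.6% and 42.6%, and Y was 39.4%. In 1000-bp tiles without unknown bases the density on chromosome 4 was 2.19 times that of the large arms. By G+C of the tiles the ratio was 2.57 at 25 to 30%, 2.63 at 30 to 35% (606.2 against 230.1 per Mb) and 1.65 at 35 to 40%. It was 1.41 at 40 to 45% and 0.756 at 45 to 50%, where chromosome 4 had 49 tiles and 7 candidates. The large arms held 200.9, 230.1, 273.9, 239.7 and 188.8 per Mb from the lowest of these classes to the highest. The share of candidates that passed was lower on chromosome 4 in each of these classes. It was 4.78% (15 of 314) against 7.71% at 30 to 35% G+C and 0.541% (1 of 185) against 10.1% at 35 to 40%. In tiles with no transposon base the share that passed was 4.83% on chromosome 4 and 10.1% on the large arms. Within these it was 7.51% (13 of 173) against 7.79% at 30 to 35% G+C and 0.0% (0 of 89) against 10.4% at 35 to 40%. At 40 to 45% it was 7.89% (3 of 38) against 10.8%, so the chromosome 4 shares rest on few peaks. Whether composition or transposons account for the densities was not tested.

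Passing peaks lay mostly near start sites. Of the 21 peaks, 12 lay within 250 bp of a start site (57.1%, Wilson interval 36.5 to 75.5), 7 lay outside genes and 2 in introns, promoters being assigned before any other class. Off chromosome 4, 36.9% of passing peaks lay within 250 bp of a start. Of the 12 promoter summits 10 lay upstream of the nearest start (83.3%, Wilson interval 55.2 to 95.3). The median offset was −131.5 bp, where negative offsets are upstream. Among the 51 promoter candidates of the chromosome that did not pass, 31 lay upstream (60.8%, 47.1 to 73.0), and the intervals overlap. For 3 of the 12 summits, starts on both strands lay within 500 bp.

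PlexA, the receptor for semaphorin guidance cues, had the strongest peak on the chromosome. The summit at chr4:1027247 lay at −146 bp of the PlexA start with a pooled signal of 479.4, rank 215 of 30000. The second summit, 206 bp farther from the gene, had a pooled signal of 296.7. In replicate 3 these were separate peaks with signals of 294.9 and 234.5, whereas replicate 2 had 1 peak with a signal of 185.0 between them. Its rank of 416 in replicate 2 set it beside ranks 112 and 211 in replicate 3, so both libraries placed the locus near the top.

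Among transcription regulators, zfh2, a zinc-finger homeodomain factor, had the second strongest peak at −3894 bp, outside the gene. The zfh2 peak had signals of 202.9 in replicate 2 and 205.1 in replicate 3, at ranks 342 and 320, so both lists placed it alike. A weaker passing peak lay in the zfh2 intron at +4244 bp with a pooled signal of 146.1. The next strongest locus was pho, the DNA-binding Polycomb protein Pleiohomeotic, with a summit at −298 bp and signals of 163.2 in replicate 2 and 170.2 in replicate 3. Sox102F, a SoxD family factor, had its peak at −353 bp of one start inside an intron of a longer transcript. The Sox102F signals were 124.7 in replicate 2 and 77.8 in replicate 3.

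Genes of translation and RNA control had 5 passing peaks at 3 loci. RpS3A, which encodes a protein of the small ribosomal subunit, had summits at −167 and −393 bp with pooled signals of 285.0 and 159.6. The RpS3A peak nearer the start had signals of 159.7 in replicate 2 and 116.3 in replicate 3. gw encodes Gawky, an effector of microRNA silencing, and had summits at −15 and −212 bp of separate starts with pooled signals of 188.8 and 182.9. Gyf, whose mammalian relatives repress translation, had a summit at −83 bp with signals of 62.3 in replicate 2 and 134.1 in replicate 3. Signal scales can differ between lists, and by rank within a list the Gyf and gw peaks stood higher in replicate 3 and both RpS3A peaks in replicate 2.

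Shared promoters held several more. The divergent genes CG46466 and Slip1 had summits at −220 and −76 bp with pooled signals of 247.7 and 184.1. One peak with a pooled signal of 174.0 lay at +66 bp of apolpp, which encodes the main lipid carrier of the haemolymph, and within 500 bp of a start of Zyx, the focal-adhesion protein zyxin, on the opposite strand. Arf4, a small GTPase of membrane traffic, and Cals, the neuronal cadherin-like protein calsyntenin, shared a peak at −396 bp of Arf4 with signals of 138.2 in replicate 2 and 73.7 in replicate 3. These 3 pairs made up 6 of the 17 genes with a passing summit within 500 bp of a start.

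The other passing peaks had pooled signals between 132.6 and 187.8. Asator, a tau-tubulin kinase relative, had 2, at −522 and +236 bp. Arl4, a small GTPase, PIP4K, a phosphoinositide kinase, CG11360 and anne had 1 each. At anne and CG11360 the ranks in the replicate lists differed most, since anne had signals of 25.4 in replicate 2 and 110.2 in replicate 3, at ranks 16824 and 1271, and CG11360 had 33.3 and 129.4, at ranks 9671 and 912.

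**Figure D2:**
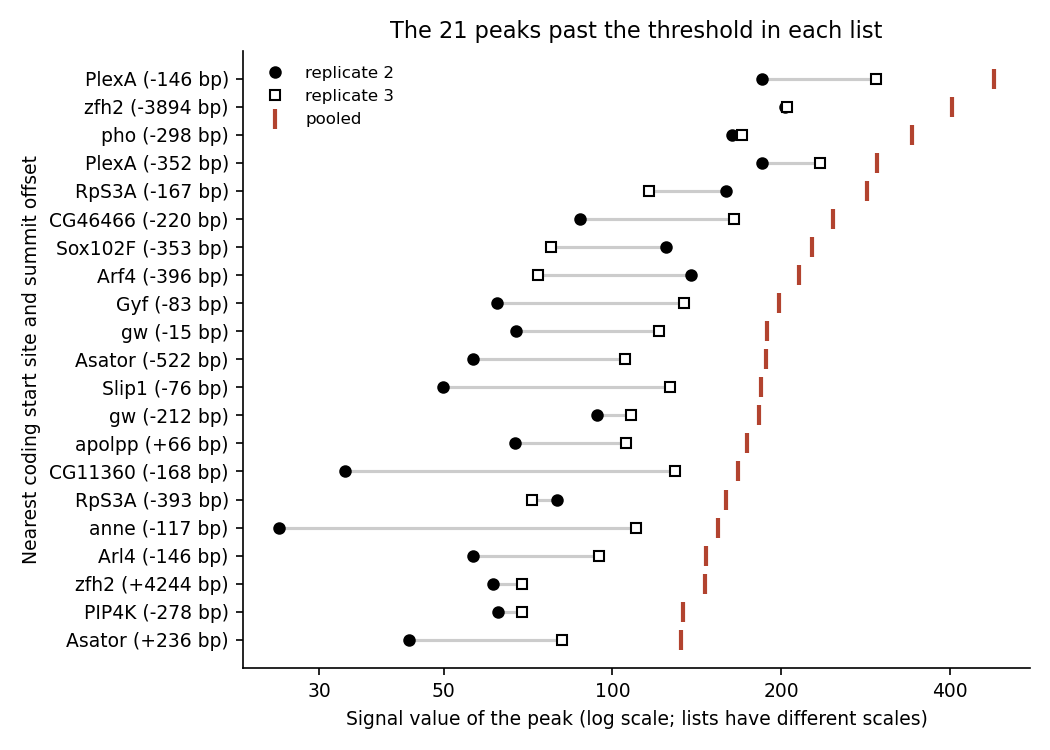
Signal value (log scale) of the 21 passing peaks of chromosome 4 in replicate 2, replicate 3 and the pooled list, each row named by the nearest protein-coding start and the summit's offset in bp; grey lines join the replicates, taken at the nearest summit of each list. Each list has its own scale, so peaks compare within a list: by rank zfh2 stood at 342 in replicate 2 and 320 in replicate 3, whereas anne stood at 16824 and 1271.

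The strongest candidates that did not pass lay in more varied places. They ranged between 110.5 and 126.0 in pooled signal, just under the lowest passing value of 132.6. The first lay in an intron shared by apolpp and Zyx beside their passing peak, and another, at 117.8, lay beside the zfh2 peak. 2 were at promoters, at 4E-T, which encodes a partner of the cap-binding factor eIF4E, and ND-49, a subunit of respiratory complex I. 3 were in 3′ UTRs, of the zinc transporter gene Zip102B, of Hcf, a cofactor of chromatin complexes, and of Cals. The peak near fuss, a Ski/Sno family regulator, lay at −4568 bp, and another lay in an exon of lncRNA:CR46488. The Hcf peak was inside a copy of the transposon 1360, and the lncRNA:CR46488 peak also lay inside an annotated transposon.

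Support in the separate replicate lists followed signal. A candidate was called matched when both replicate lists held a summit within 100 bp. That was so for 192 of the 645 candidates (29.8%, Wilson interval 26.4 to 33.4), against 33.6% elsewhere. A further 183 matched in replicate 2 alone, 178 in replicate 3 alone and 92 in neither. On chromosome 4, 2.70% of all bases lay within 100 bp of a summit in both lists, against 1.40% elsewhere, and the replicate lists were also dense there, with 649 peaks in replicate 2 and 582 in replicate 3.

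Taken by pooled signal, 64.2% of the strongest 162 candidates matched in both replicates, 39.8% of the next 161, 14.3% of the 161 after that and 0.621% of the weakest 161. The pooled list was called from the same reads, so matching of strong peaks is not independent of their rank. Of the passing peaks 19 of 21 matched in both, and the other 2, at Gyf and PlexA, had replicate 2 summits 139 and 120 bp away. Among candidates that did not pass, the matched share was 27.7% on chromosome 4 and 27.5% elsewhere. The signals of matched candidates followed each other less closely between replicates on chromosome 4. Their rank correlation (Spearman) was 0.326 there and 0.680 elsewhere. For passing peaks it was 0.316, over 19 peaks, and 0.595 elsewhere, and for the others 0.138 and 0.352. The cause was not tested.

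The replicates differed in how many chromosome 4 peaks they ranked high. Replicate 2 had 15 among its 2942 best peaks and replicate 3 had 29, and 11 peaks of each were matched in the other's best list. That is 73.3% of the replicate 2 set and 37.9% of the replicate 3 set, against 60.3% and 60.6% elsewhere. Of the 15 in replicate 2, 7 were at promoters, and of the 29 in replicate 3, 16 were. Replicate 3 also had 31 chromosome 4 peaks with a q-value of 0.01 or less, against 6 in replicate 2 and 17 in the pooled list, so most of the 645 candidates did not reach that level in any list.

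Candidates as a whole were spread over gene bodies much as the sequence itself is. On chromosome 4, 258 lay in introns (40.0%, against 44.5% of bases), 139 in coding sequence (21.6%, against 19.2% of bases), 93 outside genes (14.4%, against 19.5%), 64 in 3′ UTRs (9.92%, against 7.27%) and 63 at promoters (9.77%, against 5.93%). Elsewhere 14.1% were at promoters, which held 7.51% of bases, and only 7.50% in coding sequence, which held 15.5%. Among these classes of location, coding sequence was where chromosome 4 stood farthest from the other arms, with 536.7 candidates per Mb against 107.1. Coding bases were 41.6% G+C on chromosome 4 and 53.6% elsewhere. The part of this composition in the count was not tested.

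The coding-sequence candidates were weak, like most candidates of the chromosome. Their median signal was 49.1 on chromosome 4 and 43.7 elsewhere, the highest on chromosome 4 was 99.5, and 28.8% matched in both replicates against 20.2% elsewhere. Over all chromosome 4 candidates the median was 52.7 and 29.8% matched, and in introns these were 49.7 and 24.0%. The coding-sequence share of candidates was alike in each replicate list, at 21.7% in replicate 2 and 21.6% in replicate 3. None of the 139 passed on chromosome 4, and 6 of 2203 did elsewhere. On chromosome 4 none of the 64 candidates in 3′ UTRs passed either, and 2 of 258 in introns did.

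**Figure D3:**
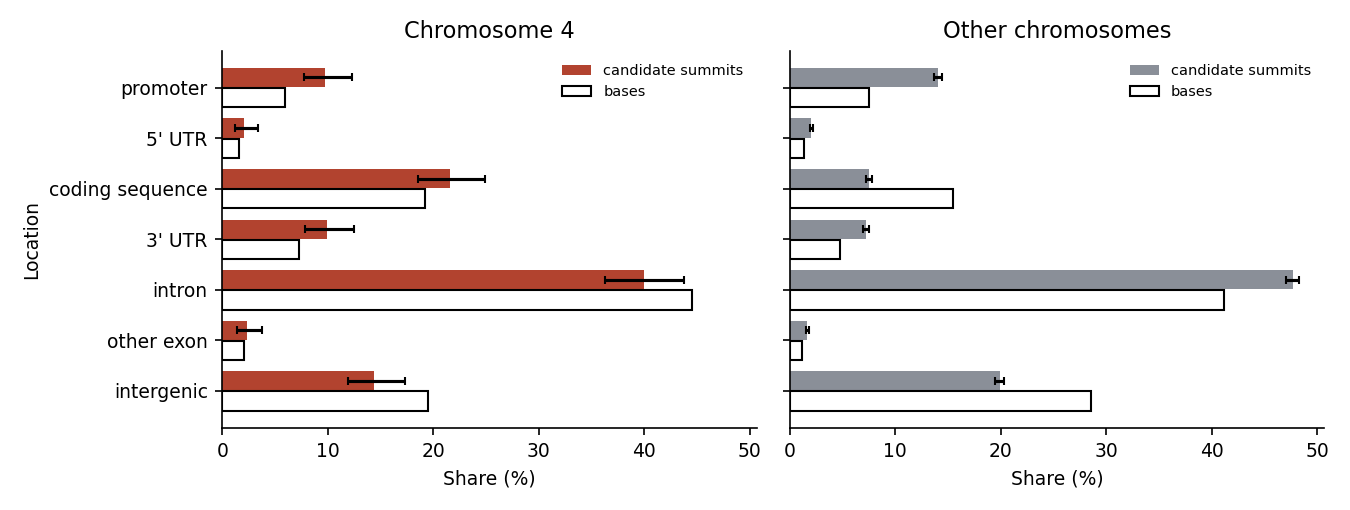
Share of candidate summits (filled bars, with 95% Wilson intervals) and of bases (open bars) in each class of location, in percent, on chromosome 4 (left) and the other chromosomes (right). Coding sequence held 21.6% of candidates on chromosome 4 and 7.50% elsewhere, whereas promoters were above their base share on both sides.

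Annotated transposons as a whole held a smaller share of candidates than of bases, on chromosome 4 and elsewhere, but families differed. Annotated transposons covered 24.8% of chromosome 4 and held 100 of the 645 summits (15.5%) and none of the 21 that passed. Elsewhere they covered 5.22% and held 226 summits (0.770%), 5 of them among the 2921 that passed. No source used here says how reads that map to several copies were treated, which bears on every transposon count. INE-1, a short element with 344 annotated copies on the chromosome, held 55 summits, or 0.565 per kb, and 20 of these matched in both replicates. The element 1360 held 23 summits in 60 copies, or 0.450 per kb. The whole chromosome held 484.6 candidates per Mb, below the INE-1 density and above that of 1360. The long telomeric element TART-A held 1 summit in 26106 bases, and HeT-A held none in 44256 bases. Summits inside transposons had a median signal of 53.6, and those outside them 52.6.

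Nearly every protein-coding gene of the chromosome held a candidate, in a list that also holds background. A summit lay inside 78 of the 80 protein-coding genes (97.5%), against 40.4% of genes elsewhere, the exceptions being CG1909 and dpr7. The genes were long, with a median of 10090 bp against 2156 bp elsewhere, and held a median of 0.532 summits per kb. Whether gene length and candidate density account for the 97.5% was not tested. A candidate lay within 500 bp of a start in 61 genes (76.25%, Wilson interval 65.9 to 84.2), against 36.5% of genes elsewhere and 36.7% over all arms. A passing summit lay there in 17 genes (21.25%, 13.7 to 31.4), against 12.1% both elsewhere and over all arms.

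The most summits inside a gene were 30 in pan, which encodes the TCF factor of Wnt signalling, followed by 22 in zfh2, 21 in unc-13 and 20 in PMCA. bt, which encodes the giant muscle protein projectin, had 15, of which 8 were in coding sequence. The densest protein-coding genes were the short genes Rad23, a ubiquitin-pathway factor, at 1.47 per kb, and ATPsynbeta, a subunit of the mitochondrial ATP synthase, at 1.46 per kb. Syt7, a synaptotagmin, had 3 in all.

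By role, 5 of 10 genes listed under translation, RNA and metabolism had a passing summit near a start, and 9 of the 10 had a candidate, Tdg being the exception. Over all 80 protein-coding genes 17 (21.25%) had a passing summit there and 61 (76.25%) a candidate. The 5 include the small GTPase gene Arl4 and the phosphoinositide kinase gene PIP4K, which are not genes of translation or RNA. The highest near-start signals in this list had a median of 133.6, led by RpS3A, Gyf, gw and Arl4. Of 16 listed transcription factors and nuclear regulators 9 had a candidate near a start and 1, Sox102F, a passing one. The list does not hold pho, whose near-start peak, at 342.4, was higher than that of Sox102F, at 227.0. The next highest in that list were Hcf at 101.9, Mitf, a regulator of lysosomal genes, at 101.7, and MED26, a Mediator subunit, at 77.8. No candidate lay within 500 bp of a start of sv, zfh2, dati, onecut, fd102C, NfI or Taf3.

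Of 8 ligand, receptor and guidance genes 6 had a candidate, with PlexA followed by the adaptor gene Crk at 106.8, the sister receptor PlexB at 103.4 and the Eph receptor at 100.8, whereas the activin-family ligand genes Actbeta and myo had none. All 8 synapse genes had a candidate, and Cals alone had one that passed. After Cals came Cadps, a factor of vesicle release, at 86.0, CaMKII, a calcium-dependent kinase, at 73.6, and unc-13, a vesicle-priming factor, at 65.8. Of 5 muscle and cytoskeleton genes 3 had a candidate, Zyx at 174.0, Ank, an ankyrin, at 67.8 and bt at 52.5, and Kif3C and RhoGAP102A had none. In the 33 coding genes of no list 26 had a candidate and 8 a passing one. The lists were chosen with earlier results known, are small, and were not tested against each other.

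**Figure D4:**
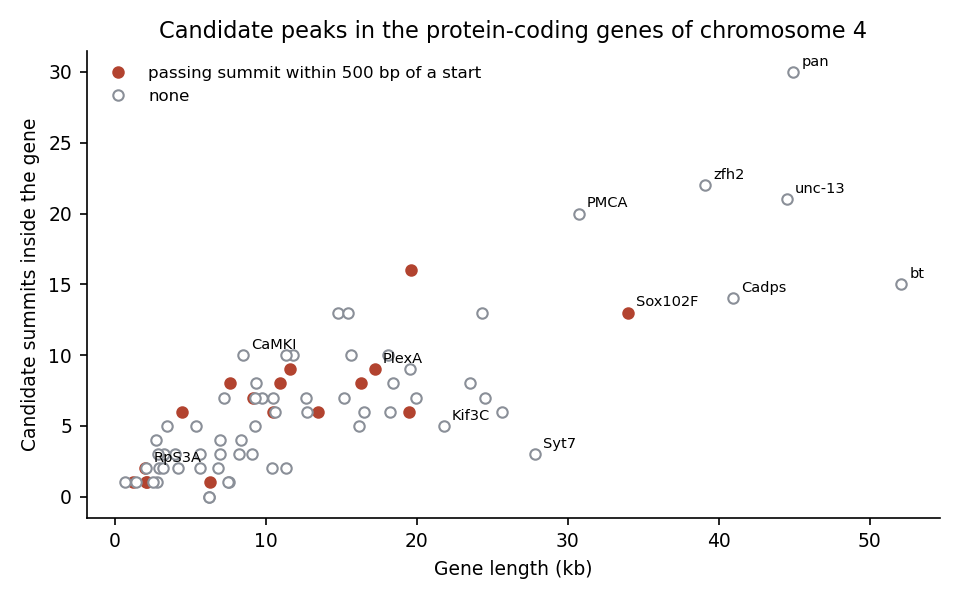
Candidate summits inside each of the 80 protein-coding genes of chromosome 4 against gene length in kb; filled points have a passing summit within 500 bp of a start. Long genes held more summits, with pan highest at 30, and the filled points spread over lengths between 1159 and 33958 bp.

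Candidates ran along the whole chromosome except its end. In 100-kb segments numbered along the assembly the pooled list held 49, 67, 41, 55, 60, 52, 55, 36, 39, 50, 55, 61 and 25 candidates, and 0 in the short last segment, of which 95.4% is transposon sequence. Passing peaks fell in 8 of the 14 segments, with 5 in segment 7, around gw, Slip1 and CG11360, and 3 each in segments 5, 11 and 12. The replicates gave like profiles, and segment 3 differed most, with 59 peaks in replicate 2 and 30 in replicate 3. The longest gap between summits was 41152 bp, reaching from near the assembly's left end into the body of PlexB, 25.4% of it transposon, the next was 21889 bp, at Mitf, where 17000 bases are unknown, and a gap of 17105 bp lay in Syt7, 64.3% of it transposon. No summit lay in the last 75913 bp, 97.1% of which is transposon sequence.

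Summits were closer together than on the large arms. The median gap was 1254.5 bp (quartiles 589.5 and 2329), against medians between 1660 and 1737 bp on the large arms. Gaps of at most 250 bp made up 11.3%, against 13.2 to 14.3% on the large arms. Peaks that overlapped another made up 47.0%, against 39.8 to 43.8% on the large arms, and merging left 486 regions. Joined where gaps were at most 1000 bp, the 645 summits made 389 clusters, of which 223 were single summits, and 65.4% of summits lay in clusters of 2 or more, against 54.1 to 57.7% on the large arms.

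The biggest cluster had 8 summits over 4501 bp at lgs, a coactivator gene of Wnt signalling, and CaMKI, a calcium-dependent kinase gene, with a highest signal of 102.7 and none that passed. Clusters of 6 lay at Ank, at RpS3A with asRNA:CR43957, and at PMCA, a calcium pump gene, and one of 5 lay at CaMKII. None of these 5 clusters held a passing peak, and at most 3 of their summits matched in both replicates. The RpS3A cluster ended at 66354, and the passing RpS3A summits lay at 67374 and 67600, just beyond the distance used for joining. That the RpS3A cluster held no passing peak thus depends on the chosen distance. Passing peaks formed 2 looser groups, 5 between the gw summit at 659998 and CG11360 at 670974, and 4 between Asator at 482484 and zfh2 at 506054.

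**Figure D5:**
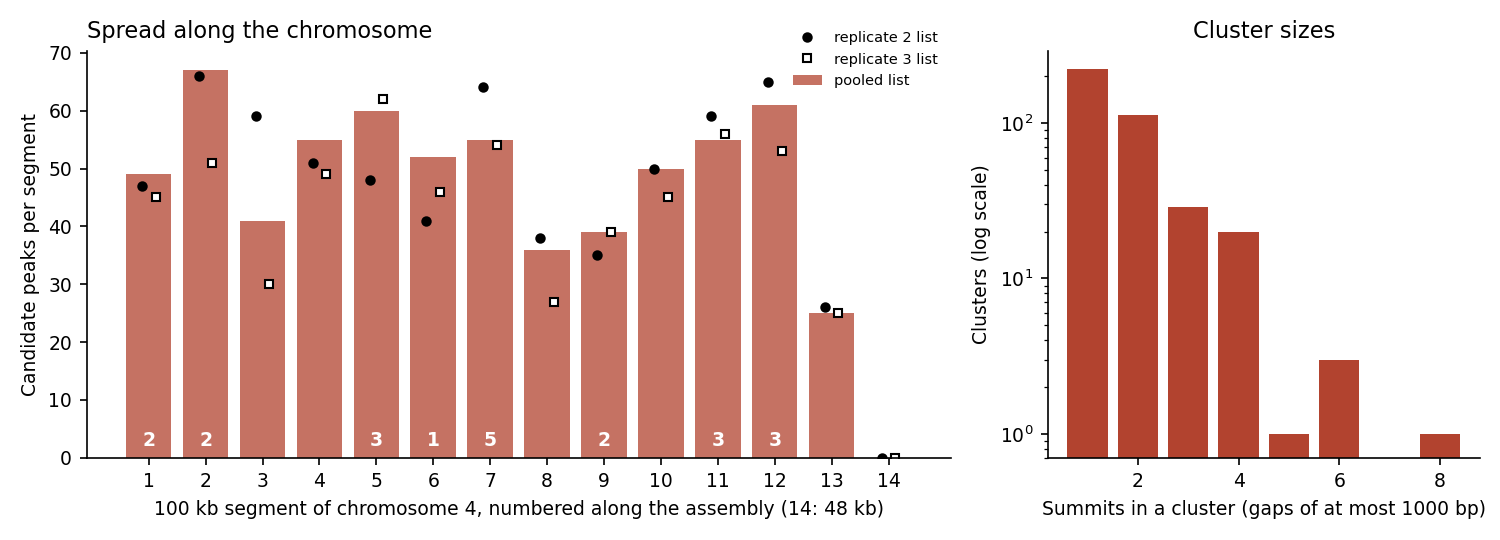
Candidate peaks in each of 14 numbered segments of chromosome 4 (left; bars, pooled list; points, replicate lists; white digits, passing peaks) and number of clusters by summits per cluster on a log scale (right). Counts lie between 25 and 67 in segments 1 to 13 and are 0 in segment 14, and 223 of 389 clusters are single summits.

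Short words were found in candidate windows at shares that differed between chromosome 4 and the rest. In 201-bp windows searched on both strands, CGATA occurred in 26.8% of chromosome 4 candidates and 22.9% of others (23.0% of all). TATCGATA, which contains CGATA, occurred in 2.64% and 1.07% (1.11% of all), and both passing PlexA windows, which overlap, held the same copy. GAGAG occurred in 17.1% and 21.7% (21.6% of all) and CACACA in 11.8% and 17.5% (17.4% of all). Of the 21 passing windows 6 held CGATA, 5 GAGAG, 2 TATCGATA and 1 CACACA. The E-box CACGTG occurred in 0.775% of chromosome 4 candidates and 2.06% of others, and the run ATATATAT in 7.29% and 5.42%. The STAT half-site pair with a spacer of 3 bases occurred in 9.92% and 5.74%, and that with 4 bases in 6.05% and 6.36%. Median G+C of the windows was 32.8% for passing peaks and 34.3% for the others on chromosome 4, against 33.3% and 38.8% elsewhere. For the words counted in the 21 windows, the shares of passing windows off chromosome 4 were 24.7%, 23.2%, 2.05% and 15.0%, in that order. In windows of 100 bp around the summit, 1, 1, 0 and 1 of the 21 peaks held them. Off chromosome 4 the 100-bp shares for passing peaks were 12.8%, 10.1%, 0.822% and 6.33%. Most matches in the 21 windows thus lay outside the 100-bp windows. The part of base composition in these shares was not tested.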

How the data were processed

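Su(var)2-10-GFP ChIP-seq peak lists of 2 biological replicates were used, each deposited by the authors for dm6 and dm3. Per the labels' file notes, peaks with background were called on single replicates with a control and on both replicates pooled, as input for IDR. No source used here names the aligner, the peak caller, or the version and threshold of IDR. The deposited signal value is a score without a set unit, so peaks were compared across lists by rank, with each list's values given side by side. The deposited −log10 q gave each peak's q-value, and the deposited summit offset gave its position. Read counts were not used here and depth is unknown.

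Locations came from Ensembl release 115 (BDGP6.54), and transposons and sequence from RefSeq Release 6, whose arm lengths fit the dm6 coordinates. Each summit took 1 class, promoters (250 bp) first. Transposon genes gave no start sites. Computation ran in Python 3.11.15 (scipy 1.17.1, pandas 2.3.3, numpy 2.4.6), with functions tested on simulated data. Genes were named where nearest to a passing peak or to the 10 strongest others, and where they led a role list, had no candidate or lay in the 5 biggest clusters; genes with most or densest summits were added after their values were seen. One of the strongest others is not reported here. Members and lists were chosen with earlier results of these data known. Shares have 95% Wilson intervals, and alternatives changed 1 choice at a time, except tiles chosen by G+C and transposon content together. No p-value was computed.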

Additional observations from a re-analysis of the deposited data

How the results depend on the processing

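The 21 passing peaks were 3.26% of candidates, and the share was 1.40% with the 1471 strongest passing peaks, 3.70% in merged regions and 3.58% in the dm3 lists. Over all chromosomes the main share was 9.81%, and keeping only 1471 of 30000 candidates lowers that share too. In the dm3 lists 2595 of 26751 candidates passed over all chromosomes, and no such share is given for merged regions. Candidates numbered 582 to 649 in single replicates, 558 on dm3 and 17 at a −log10 q of at least 2. Matching in both replicates was 20.0% within 50 bp, 47.3% within 250 bp and 47.9% for intervals overlapping by 50%. The promoter share was 3.10% within 100 bp, 18.0% within 500 bp, 58.8% at a −log10 q of at least 2 and 7.70% to 12.5% in single replicates. Genes with a candidate near a start numbered 44 within 250 bp, 74 within 1000 bp and 53 to 64 in single replicates. Clusters numbered 486 at 500 bp and 196 at 2000 bp. The median gap was 1747 bp between merged regions and, in single replicates (chosen after seeing the data), 1266 to 1352 bp. The density ratio of chromosome 4 to the large arms in tiles, chosen after seeing the data, was 2.19, and 2.57, 2.63, 1.65, 1.41 and 0.756 in G+C classes from 25 to 30% up to 45 to 50%. Without transposon bases it was 2.35 overall and 2.51, 1.65 and 1.77 from 30 to 35% up to 40 to 45%. For passing peaks the same ratio was 0.715 (95% Wilson interval 0.467 to 1.09), then 1.10, 1.63, 0.0878, 0.746 and 0.0 by G+C class, 1.12 without transposon bases, and 2.42, 0.0 and 1.30 in the 3 classes. These ratios rest on 21 peaks or fewer, and the cause was not tested. No paired analysis was possible because the study has 1 group.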

Other observations

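Several high-ranking chromosome 4 peaks of single replicates were not within 100 bp of a passing pooled summit. In replicate 2 these were 4 of 15 best peaks, in ATPsynbeta coding sequence with a signal of 90.5, at the 4E-T promoter with 78.2, in the Cals 3′ UTR with 72.8 and at the Mitf promoter with 64.9. In replicate 3 they were 10 of 29. Of those, 3 lay beside passing loci, at −106 bp of pho with a signal of 178.9, at −181 bp of Sox102F with 107.8 and at −197 bp of Cals with 84.1. The others included 2 summits at Eph, with 88.2 and 85.4, 1 at the CaMKI promoter with 89.5 and 1 at the toy promoter with 77.8, toy being a Pax family eye-development gene. The nearest replicate 2 peaks to the Eph summits ranked 28382 and 15058. These loci were chosen after their values were seen, and they are single-library values with no replicate spread.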
